A study of Rattus norvegicus with 55 samples.

Results

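Kidney expression in young rats was set against that in immature rats on the arrays that read low for RT1-Bb, a chain of the rat's MHC class II molecules. The arrays were chosen by 1 probe set for RT1-Bb, which had to lie below an intensity of 600. This left 21 of the 55 arrays of the series, 11 young of 14 and 10 immature of 13. The RT1-Bb intensity that chose them lay at 80.1 to 263.0 on the young arrays and at 88.8 to 196.0 on the immature arrays. The nearest array outside the limit, immature replicate 3, read 1411.5, and the highest inside it, young replicate 12, read 263.0, so no array lay close to the limit.

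The rats of both groups are called Wistar-derived in the descriptions, and every title names the spontaneously hypertensive rat (SHR). The labels say no more about the strain. They give no treatment, age in days, sex or diet, and do not state whether each array came from its own animal. The spread behind the p-values below is thus that among arrays, and some or all of it may be technical. Each array was hybridised with kidney RNA on a 1-colour Affymetrix rat chip, and the question the labels pose is how the kidney differs between these stages.

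As the rat kidney matures after birth, its last nephrons form, cell division slows and the interstitial matrix of the growing organ thins out. The proximal tubule gains its brush border, a dense layer of microvilli with membrane peptidases, and its transporters for organic ions and amino acids. Growth hormone and sex steroids come to set the level of many enzymes, among them cytochromes P450, and the kidney holds its own renin-angiotensin system and its own circadian clock.

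Nephron markers were present in both groups. Slc34a1, the phosphate transporter of the proximal tubule, lay at 12651 to 23639 on young and 6911 to 18096 on immature arrays, and Umod, the uromodulin of the thick ascending limb, at 11045 to 16549 on young and 3995 to 11486 on immature arrays. In whole kidney, fewer cells of a type and less RNA per cell cannot be told apart. Among the other class II genes the split by RT1-Bb was not uniform. RT1-Ba read 456.2 to 1029 on the 21 arrays and 1805 to 3595 on the 6 young and immature arrays above the limit, whereas Cd74, the class II invariant chain, read 3065 to 5830 and 2430 to 4778, and a second RT1-Bb probe set 643.0 to 1378 and 469.7 to 1534. These levels were chosen with the arrays and were not tested.

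The arrays fell into technical sets that did not match the stages evenly. The spike-in control CreX, of bacteriophage sequence, read below 9000 on 3 young and 7 immature arrays (CreX-low). It read above 9000 on 8 young and 3 immature arrays (CreX-high). All 6 arrays above the RT1-Bb limit had one class per stage, with 3 young arrays CreX-low and 3 immature arrays CreX-high. These 3 sets share no array. Inside the CreX-low set, the probe set whose annotation lists 18S ribosomal RNA among other genes lay at 17.6 to 59.2 on young and 13775 to 20470 on immature arrays, so 18S signal and stage cannot be told apart there. Inside the CreX-high set, 5S ribosomal RNA read 258.0 to 729.1 on young and 39.8 to 55.0 on immature arrays, and the same holds for 5S and stage. The immature arrays above the RT1-Bb limit also read low for 5S (24.1 to 31.9), so they share that feature with the CreX-high immature arrays. Young replicate 12 stood apart with a CreX reading of 28386 and an 18S reading of 4873.8. For RNA integrity, the signal of the 3' over that of the 5' GAPDH control was 0.884 to 1.09 on young and 0.827 to 1.12 on immature arrays. The same ratio for actin separated the stages inside both sets, in opposite directions: it was 1.13 to 1.30 on young and 1.37 to 1.94 on immature arrays of the CreX-low set, and 1.34 to 1.61 on young and 0.869 to 1.26 on immature arrays of the CreX-high set. Its part in the results was not tested.

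Over the 6555 probe sets tested, each of the 21 arrays was most alike to an array of its own stage and CreX class (21 of 21). On the first principal component, which held 38.0% of the variance, all CreX-high arrays lay to one side of all CreX-low arrays, and the second held 13.7%.

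**Figure D1:**
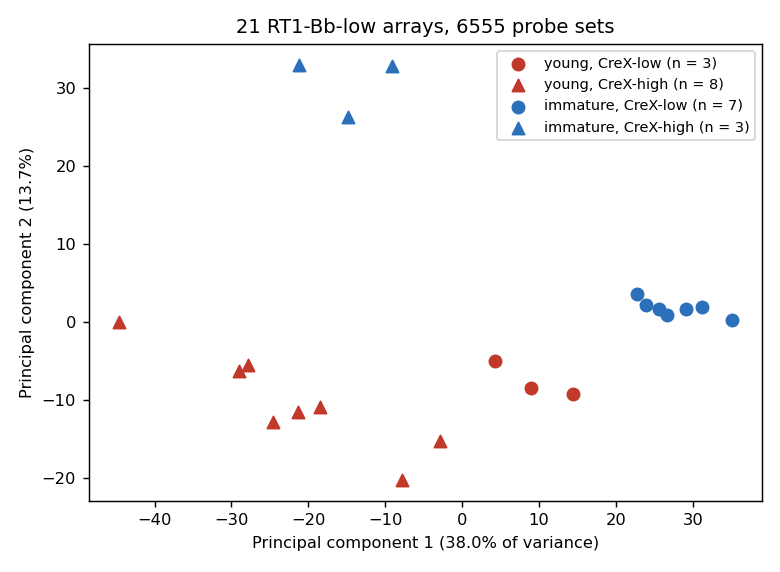
Principal components of the 21 arrays (log2 intensities of 6555 probe sets), with young arrays in red, immature arrays in blue, circles for CreX-low and triangles for CreX-high. The 4 combinations of stage and CreX class lie apart, and no young array lies among immature ones.

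Over all 21 arrays 1801 of 6555 probe sets passed (27.5%). Of 3830 named genes, each read by its brightest probe set, 1030 passed (26.9%), 431 of them higher in young kidney (11.3%) and 599 lower (15.6%). The test was limma on log2 intensities with Benjamini-Hochberg adjusted p-values and a threshold of 0.05. In 23 genes every young array lay above every immature one (0.601% of genes), and in 39 every young array lay below (1.02%). In the CreX-low set alone 343 genes were higher (8.96%) and 438 lower (11.4%), and in the CreX-high set alone 212 were higher (5.54%) and 254 lower (6.63%). The RT1-Bb-high arrays, outside the limit, gave 142 higher (3.71%) and 67 lower (1.75%). With CreX class as a block in the fit of 21 arrays, 308 genes were higher (8.04%) and 447 lower (11.7%). Of the 1801 probe sets called without the block, 1092 also passed with it, and all 1801 kept their direction.

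The calls of the CreX-low and CreX-high sets overlapped in part. Of the 696 probe sets higher in young kidney in the CreX-low set (10.6% of those tested), 447 also had a change above 0 in the CreX-high set (64.2%), where 42.6% of all probe sets did. Of the 723 lower ones (11.0%) 533 had a change below 0 (73.7%), against 57.4% of all. Separately called in both sets were 62 genes higher in both (1.62%) and 72 lower in both (1.88%), while 26 were called in opposite directions (0.679%). Adding the RT1-Bb-high arrays as a further set, 31 genes were higher in all 3 sets (0.809%) and 16 lower in all 3 (0.418%). Across the 6555 probe sets, whose values share libraries and are not independent, the log2 changes of the CreX-low and CreX-high sets had a Pearson r of 0.19, those of the CreX-low and RT1-Bb-high sets 0.25 and those of the CreX-high and RT1-Bb-high sets 0.48.

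**Figure D2:**
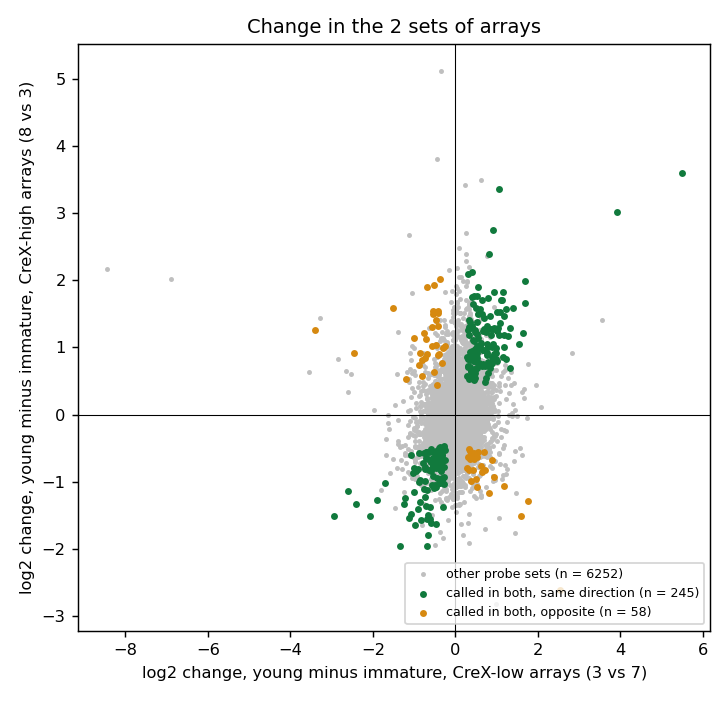
Log2 change, young minus immature, in the CreX-low arrays (x axis, 3 against 7 arrays) and the CreX-high arrays (y axis, 8 against 3), with 1 point per probe set tested. The 245 green points passed in both sets in the same direction, the 58 orange points in opposite directions, and the green point farthest to the upper right is Cyp2c11.

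The largest change in either direction was the rise of Cyp2c11 (probe set J02657_s_at), a steroid hydroxylase known as the male-specific cytochrome P450 of adult rat liver. It read 1286 to 2946 (median 1655) on the 11 young arrays and 20.7 to 214.4 (median 51.0) on the 10 immature arrays. Every young array lay above every immature array, by a gap of several fold. The log2 change was 4.62 ± 0.30 (SE), or 24.6-fold (limma, adjusted p = 1.1e-09). In the CreX-low set the young arrays read 2254.5, 2534.0 and 2946.1, and in the CreX-high set the immature arrays read 75.7, 214.4 and 92.1. The change was 5.49 ± 0.48 in the CreX-low set and 3.59 ± 0.25 in the CreX-high set, and these differed by 1.90 (adjusted p = 0.030 for the interaction). On the arrays above the RT1-Bb limit Cyp2c11 read 1359.8, 2188.9 and 1352.3 in young and 20.8, 89.4 and 239.4 in immature kidney, a change of 4.01 ± 0.64 (adjusted p = 0.014). The 2 other probe sets of Cyp2c11 also passed, upward.

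The promoter of Cyp2c11 is shown with that of Enpep, the gene with the next largest change in the CreX-high set among the 12 largest rises. Both are RefSeq sequences of build GRCr8, from 250 bases before the annotated start to 50 bases after it, at chr1:246174966-246175265 (plus strand) for Cyp2c11 and chr2:220526169-220526468 (minus strand) for Enpep. Capitals mark a TATA box (TATAAA), found 31 bases before the start of Cyp2c11, and, read on the opposite strand, a D-box (TTATGTAA), found 203 bases before the start of Enpep.
Cyp2c11: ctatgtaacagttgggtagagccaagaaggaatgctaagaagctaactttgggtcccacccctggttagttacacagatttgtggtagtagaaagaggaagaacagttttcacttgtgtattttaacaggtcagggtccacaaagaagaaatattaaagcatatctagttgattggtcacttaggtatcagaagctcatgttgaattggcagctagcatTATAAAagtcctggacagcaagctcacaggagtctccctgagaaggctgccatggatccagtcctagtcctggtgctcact
Enpep: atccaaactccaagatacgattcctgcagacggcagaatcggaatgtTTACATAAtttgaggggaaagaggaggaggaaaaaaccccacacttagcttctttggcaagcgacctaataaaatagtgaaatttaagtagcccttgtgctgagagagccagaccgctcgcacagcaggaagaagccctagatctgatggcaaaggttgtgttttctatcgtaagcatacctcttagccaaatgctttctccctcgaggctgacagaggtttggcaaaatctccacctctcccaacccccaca
On either strand, TATAAA stood in 14.2% of 33469 rat promoters of this length and TTATGTAA, the motif known to bind Dbp and its relatives, in 0.893%. A match describes the letters and is no evidence of binding.

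Of the 20 drug and steroid P450 genes tested, 3 rose and 2 fell in young kidney, where 11.3% and 15.6% of all 3830 genes did. The median log2 change was 0.27 against 0.03 over all genes. In the CreX-low, CreX-high and RT1-Bb-high sets the list median was 0.23, -0.15 and -0.23, against 0.04, -0.09 and -0.03 over all genes. With CreX class as a block it was 0.02. Cyp2c6v1 was higher by 0.78 ± 0.18 and Cyp2e1, the ethanol-inducible P450, lower by -0.68 ± 0.16. Cyp2c6v1 passed neither within the CreX-low set (0.55, adjusted p = 0.093) nor within the CreX-high set (0.53, adjusted p = 0.14). Of 23 arachidonate enzymes and receptors 5 rose and 3 fell (median 0.16). Cyp2c23, the epoxygenase of the rat kidney, rose by 0.88 ± 0.19 (9256 to 21717 on young and 4943 to 16071 on immature arrays). Cyp4f1 rose by 0.61 ± 0.10 and Cyp4a8 by 0.53 ± 0.11, both omega-hydroxylase genes, while Pla2g4a, the phospholipase that frees arachidonate, fell by 0.60 on the log2 scale. Cyp4f1 passed in both sets, whereas Cyp2c23 and Cyp4a8 passed in the CreX-high set only, with interaction terms that did not pass (adjusted p = 0.39 for each). Ptgir, the prostacyclin receptor, which is not in that list, rose by 1.29 ± 0.26. Its change was 0.76 in the CreX-low set, without passing (limma, adjusted p = 0.056), and 2.36 in the CreX-high set. That difference passed (adjusted p = 0.013 for the interaction).

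Of the 18 members of the renin-angiotensin-kallikrein list, 6 rose and 1 fell (median 0.30), where 11.3% and 15.6% of all genes did. The list median was 0.22 in the CreX-low, -0.03 in the CreX-high and -0.09 in the RT1-Bb-high set. In these sets 3, 4 and 2 members were higher and 0, 1 and 1 lower. Peptidases that trim angiotensins were among the members that rose over the 21 arrays. Enpep (S73583_at), aminopeptidase A, which removes the first residue of angiotensin II, read 418.3 to 717.0 (median 530.6) on young and 24.6 to 382.9 (median 251.5) on immature arrays. All young arrays lay above all immature arrays, and the low immature values came from the CreX-high arrays, at 24.6, 50.0 and 37.4. The change was 1.65 ± 0.36, or 3.13-fold (adjusted p = 0.0021), and was 1.07 ± 0.21 in the CreX-low set and 3.36 ± 0.19 in the CreX-high set (adjusted p = 2.3e-05 for the difference). Above the RT1-Bb limit, young arrays read 681.9, 674.7 and 775.8 and immature arrays 20.7, 68.8 and 23.1.

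Agt, angiotensinogen, the substrate from which all angiotensins are cut, rose by 1.15 ± 0.19. It read 425.0 to 683.5 on young and 133.4 to 526.5 on immature arrays, and the groups overlapped, with the CreX-high immature arrays at 295.9, 526.5 and 442.6. Its change was 1.62 ± 0.19 in the CreX-low set and 0.34 ± 0.17 in the CreX-high set, where it did not pass (adjusted p = 0.23), and the difference passed (1.28, adjusted p = 0.0027). The CreX split of Agt thus ran opposite to that of Enpep. Ctsb, the lysosomal protease cathepsin B, rose by 0.98 ± 0.12 without overlap of the groups (5774 to 10852 on young and 3070 to 5062 on immature arrays) and passed in both sets. Anpep, aminopeptidase N, rose by 0.44 ± 0.10. Prep, prolyl endopeptidase, which is not in the list, rose by 1.20 ± 0.16 and passed in all 3 sets (1.28, 1.17 and 1.74).

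**Figure D3:**
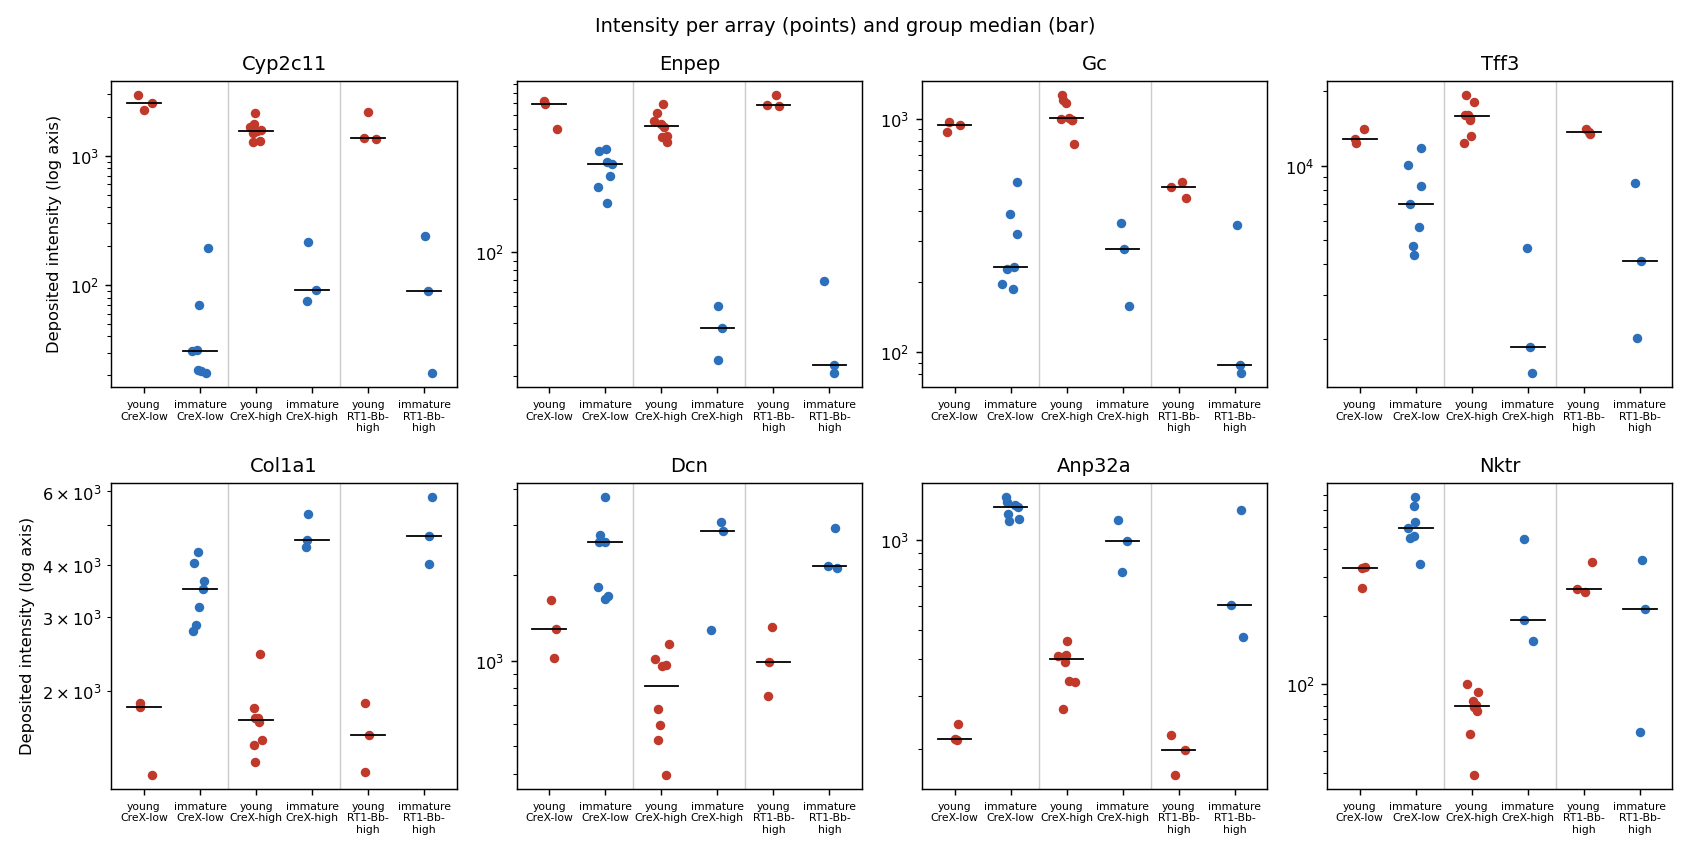
Deposited intensity (log axis) of 8 genes on every young (red) and immature (blue) array, in the CreX-low, CreX-high and RT1-Bb-high sets, with bars for medians. Cyp2c11, Enpep and Gc are higher and Col1a1 and Anp32a lower in young kidney in each set, while Nktr reads low on the CreX-high young arrays (39.1 to 99.4).

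Genes of plasma and secreted proteins contributed several of the largest rises, 5 of 28 in that list against 1 fall (median 0.04). Gc, the vitamin D-binding protein, read 778.8 to 1264 (median 982.7) on young and 157.8 to 536.6 (median 253.6) on immature arrays, with no overlap. Its change was 1.84 ± 0.16, or 3.58-fold (adjusted p = 6.5e-08), and close to that in the CreX-low (1.68 ± 0.28) and CreX-high (1.99 ± 0.22) sets. On the RT1-Bb-high arrays it was 1.74 ± 0.49 and did not pass (adjusted p = 0.077). Tff3, a trefoil factor secreted by epithelia, read 12379 to 19342 on young and 1452 to 11808 on immature arrays and rose by 1.57 ± 0.28.

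Mbl1, a mannose-binding lectin of the complement system, rose by 1.42 ± 0.13, and passed in both CreX sets. Resp18, a secretory granule protein, read 446.2 to 909.7 on young and 159.2 to 454.0 on immature arrays, and it passed in both CreX sets as well. F2, prothrombin, rose by 1.28 ± 0.19, but by 1.95 ± 0.21 in the CreX-low set and by 0.44 ± 0.18 in the CreX-high set, where it did not pass (adjusted p = 0.12). Cyp2c11, Gc, Mbl1 and F2 are all best known from liver, so the liver's defining transcripts are given beside them. Alb, albumin, read 37.8 to 126.9 on young and 47.8 to 91.7 on immature arrays, and Ttr 101.0 to 283.6 on young and 107.1 to 441.6 on immature arrays. Fga, a fibrinogen chain, read 105.6 to 304.1 on young and 165.3 to 310.1 on immature arrays, and Serpina1, antitrypsin, 79.6 to 485.4 (median 264.4) on young and 132.2 to 615.9 (median 192.8) on immature arrays. None of the 4 liver genes was at 0, the groups overlapped in each, and none passed. The 21 markers of adrenal, liver, fat, muscle and nerve summed to 6109 to 11731 on young and 5620 to 8889 on immature arrays. Lep alone read 2423 to 4262 on young and 1656 to 3491 on immature arrays, so the sum is no even gauge of these tissues. In the CreX-low set the sum was 6109 to 7406 on young and 5620 to 6558 on immature arrays. In the CreX-high set it was 6270 to 11731 and 7601 to 8889. Of the 21 markers Cyp21a1 (0.58), Lep (0.39) and Myh3 (0.46) were higher and Nrgn (-1.02) lower. Without young replicate 12 the counts were 1 higher and 1 lower, and Lep lost its call when any of 15 arrays was left out and Cyp21a1 when any of 13 was. On the RT1-Bb-high arrays Lep changed by -0.76, the other way. Their part in the rises was not tested.

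The proximal tubule's brush border and metabolic enzymes formed the list with the largest share of rises: 13 of 26 were higher in young kidney and 0 lower (median 0.31). With CreX class as a block 10 were higher and 0 lower, and without young replicate 12 also 10 and 0. In the CreX-low set alone 6 were higher and 0 lower, and in the CreX-high set alone 7 were higher and 1 lower. On the RT1-Bb-high arrays 1 of the 26 was higher and 0 lower, close to the 3.71% of all genes called higher there. Acy1, aminoacylase, rose by 0.63 ± 0.12 and Dao, D-amino acid oxidase, by 0.51 ± 0.11, next to Enpep and Anpep. Acy1 changed by 0.25 in the CreX-low and 1.02 in the CreX-high set, and Anpep by 0.07 and 0.64. Acy1 read 8184 to 13382 on young and 4061 to 8009 on immature arrays, without overlap.

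Organic ion and peptide transporters followed, with 6 of 13 higher and 2 lower (median 0.43). Slc22a2, the organic cation transporter of the basolateral membrane, read 3549 to 5925 on young and 1387 to 3079 on immature arrays. No young array lay as low as any immature one, and the rise was 1.08 ± 0.14 (adjusted p = 1.2e-05), with passes in both sets. Slc22a6, the organic anion transporter, rose by 0.72 ± 0.12 and the efflux pump gene Abcc1 by 1.14 ± 0.23. Abcc1 changed by 0.09 ± 0.19 in the CreX-low set and 1.84 ± 0.26 in the CreX-high set. Slc15a2, the high-affinity peptide transporter, fell by 0.54 on the log2 scale, and every young array lay below every immature one (506.3 to 867.9 on young and 894.1 to 1373 on immature arrays).

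The other transporters and channels of the proximal tubule went both ways, 6 of 28 higher and 5 lower (median 0.06). Aqp1, the water channel of the proximal tubule and thin limb, rose by 0.78 ± 0.12, in groups that did not overlap (6592 to 11080 on young and 3537 to 6503 on immature arrays). Slc13a3, a dicarboxylate transporter, rose by 0.74 ± 0.13, Slc3a1, the heavy chain of the cystine transporter, by 0.55 ± 0.10 and Slc26a1, a sulphate transporter, by 0.60 ± 0.13. In the CreX-low set 0 of the 28 were higher and 6 lower, and in the CreX-high set 7 were higher and 2 lower. The counts thus pointed opposite ways in the 2 sets.

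Distal segments also held both directions, with 8 of 40 genes of the loop, distal tubule and collecting duct higher and 7 lower (median 0.09). Without young replicate 12 the counts were 4 higher and 7 lower. Aqp3, the basolateral water channel of the collecting duct, fell by 0.60 on the log2 scale, with 1286 to 2102 on young and 2209 to 3120 on immature arrays. Its groups did not overlap, and it passed in both CreX sets. Krt18, a simple epithelial keratin, changed by -0.79, Fxyd4, a regulator of the sodium pump, by -0.47 and Car2, carbonic anhydrase, by -0.55. Car2 changed by 0.40 on the RT1-Bb-high arrays, the other way, without passing (adjusted p = 0.18).

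Other kidney cell types were covered by small lists. Of 6 podocyte and glomerular genes, Actn4 (0.62 ± 0.16) and Synpo (0.52 ± 0.16), both actin-binding proteins of foot processes, were higher. Lamb2 (-0.36) and the growth factor gene Vegfa (-1.06, adjusted p = 0.0498) were lower, although Vegfa passed in neither the CreX-low nor the CreX-high set (adjusted p = 0.12 and 0.64). The genes Ptpro (-0.33, adjusted p = 0.13) and Wt1 (0.26, adjusted p = 0.33) did not pass. Of 11 endothelial genes 3 rose and 1 fell, with Vegfb at 0.83 ± 0.21 and Nrp1 at -0.32 ± 0.09. Of 13 smooth muscle and mesangial genes 2 rose and 2 fell, with the receptor genes Pdgfrb at 0.50 ± 0.14 and Pdgfra at -0.46 ± 0.14 and the light chain Myl9 at -0.95 ± 0.28. Erythroid genes gave 0 calls of 10 in either direction over the 21 arrays by limma (2 at an unadjusted p under 0.05), although the globin gene Hbb was lower in the CreX-low set (-0.74, adjusted p = 0.0036). The summed level of the erythroid genes was 8461 to 10563 on young and 12044 to 15870 on immature arrays of that set.

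Of the 31 lists, that of fibrillar matrix genes had the largest share of falls: 11 of 22 were lower and 4 higher (median -0.39). Col1a1, a chain of type I collagen, read 1256 to 2453 (median 1721) on young and 2773 to 5302 (median 3860) on immature arrays. The groups did not overlap, and its 3 other probe sets passed downward too. The change was -1.17 ± 0.13 (adjusted p = 9.5e-07), with -1.07 ± 0.17 in the CreX-low, -1.48 ± 0.18 in the CreX-high and -1.62 ± 0.23 in the RT1-Bb-high set. Col1a2, the other chain of type I collagen, changed by -0.82 ± 0.11 and likewise passed in all 3 sets.

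Col5a2, which regulates collagen fibril width, changed by -1.17 ± 0.13 and passed in both CreX sets, but lay at -0.08 ± 0.21 on the RT1-Bb-high arrays. Dcn, decorin, a proteoglycan that coats collagen fibrils, changed by -1.39 ± 0.23 and passed in all 3 sets. It read 396.0 to 1637 on young and 1278 to 3764 on immature arrays, which overlapped. Basement membrane and adhesion genes gave 7 lower and 0 higher of 18 (median -0.08). Gpc3, a glypican of growing tissue, changed by -1.19 ± 0.16, Fn1, fibronectin, by -1.15 ± 0.17, Itgb1, an integrin chain, by -0.61 ± 0.12 and Agrn, agrin, by -0.59 ± 0.10. Of the 3 other probe sets of Fn1, 1 was called upward and 0 downward. Matrix turnover genes gave 1 higher and 2 lower of 28, with Ltbp1, which anchors latent TGF-beta, at -0.57 ± 0.12. Timp3, a metalloproteinase inhibitor, was the higher one, with 1386 to 2515 on young and 464.4 to 1403 on immature arrays, and passed in all 3 sets (0.79, 1.73 and 1.64).

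Genes of DNA replication were lower in 11 of 23 cases and higher in 0 (median -0.17), where 15.6% of all genes were lower. Genes of mitosis were lower in 4 of 14 and higher in 0 (median -0.31). Prim1, a DNA primase subunit, changed by -1.08 ± 0.25, the histone variant gene H2az1 by -0.89 ± 0.18, E2f5 by -0.76 ± 0.14 and Cdk4 by -0.48 ± 0.09. Rpa3, a single-strand DNA binding subunit, changed by -1.47 ± 0.54 (adjusted p = 0.044), but by -0.04 ± 0.53 in the CreX-high set and 1.09 ± 0.40 on the RT1-Bb-high arrays. There Prim1 (0.56), H2az1 (0.085) and Cdk4 (0.024) also had changes above 0, none of which passed. Top2a, the topoisomerase of dividing cells, changed by -0.47 ± 0.13, Hmgb2 by -0.62 ± 0.12, Cdk1 by -0.38 ± 0.12 and Racgap1 by -0.38 ± 0.14. Within the CreX-high set alone 2 replication genes and 1 mitosis gene were lower, where 6.63% of all genes were. In the CreX-low set 8 and 3 were lower, where 11.4% of all genes were. With only arrays reading below 2000 for 18S, 2 genes of each list were lower, where 406 of 6555 probe sets were. Whether the CreX sets differ was tested gene by gene only, and none of the genes named in this paragraph passed the interaction test.

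Cytosolic ribosomal protein genes fell by a small amount in many members, 14 of 39 lower and 1 higher (median -0.20). Of the 39, 23 had a change below 0 in all 3 sets of arrays, where 20.1% of all genes did. Calls were uneven, with 18 lower and 0 higher in the CreX-low set and 5 lower and 3 higher in the CreX-high set. On the RT1-Bb-high arrays 0 were lower and 0 higher, where 1.75% of all genes were lower. With only arrays reading below 2000 for 18S, 6 were lower and 2 higher. That setting holds no CreX-low immature array, so it rests on the 3 CreX-high immature arrays. Rps10 (-0.55 ± 0.08), Rpl22 (-0.56 ± 0.08), Rps15 (-0.51 ± 0.08) and Rps16 (-0.42 ± 0.08) did not overlap between the groups. Rps16 read 4442 to 6157 on young and 6792 to 8985 on immature arrays. Many ribosomal genes have near-identical copies, and probes may read several of them. The proteasome list had 6 lower and 0 higher of 21 (median -0.08), with Psmb4 (-0.46 ± 0.08) lower in all 3 sets.

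Circadian clock genes held some of the larger falls, 3 of 9 lower and 1 higher (median -0.04). Dbp, a transcription factor that is itself driven by the clock and binds D-boxes, read 75.5 to 469.3 (median 282.4) on young and 391.3 to 1294 (median 761.5) on immature arrays. The ranges overlapped only at their ends. The change was -1.49 ± 0.26 (adjusted p = 3.3e-04), with -1.59 ± 0.21 in the CreX-low set, -0.87 ± 0.42 in the CreX-high set (adjusted p = 0.20) and -1.06 ± 0.53 on the RT1-Bb-high arrays (adjusted p = 0.25). Per2, a repressor of the clock, changed by -1.34 ± 0.37 and Nr1d2, a nuclear receptor of the clock, by -1.09 ± 0.28, and neither passed in the CreX-high set. On the RT1-Bb-high arrays Per2 lay at -0.08 and Nr1d2 at 0.19, the other way, and Nr1d2 was at 0.035 with only arrays reading below 2000 for 18S. Hlf, a relative of Dbp, lay at 0.42 ± 0.15 (adjusted p = 0.040). The labels give no hour of tissue collection, so hour and stage cannot be told apart.

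The promoters of Dbp and Per2 are shown because both genes fell and Per2 holds the D-box that Dbp is known to bind. They are RefSeq sequences of build GRCr8 at chr1:105312006-105312305 (plus strand) and chr9:99496944-99497243 (minus strand), over the same window. Capitals mark CCAAT boxes read on the opposite strand in Dbp, 225 and 193 bases before the start, and the D-box TTATGTAA in Per2, 192 bases before the start.
Dbp: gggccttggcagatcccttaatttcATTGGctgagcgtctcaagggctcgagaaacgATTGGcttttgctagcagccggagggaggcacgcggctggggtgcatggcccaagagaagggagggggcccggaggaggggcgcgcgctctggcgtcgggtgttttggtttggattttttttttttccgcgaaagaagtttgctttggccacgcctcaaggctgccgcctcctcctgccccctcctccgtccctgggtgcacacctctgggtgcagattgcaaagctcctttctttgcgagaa
Per2: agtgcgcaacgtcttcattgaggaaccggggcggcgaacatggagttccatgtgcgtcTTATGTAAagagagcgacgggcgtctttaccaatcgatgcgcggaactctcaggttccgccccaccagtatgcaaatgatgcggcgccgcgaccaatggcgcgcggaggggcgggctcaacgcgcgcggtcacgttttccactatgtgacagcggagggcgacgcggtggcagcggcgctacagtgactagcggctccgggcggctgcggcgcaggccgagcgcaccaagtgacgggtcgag
CCAAT stood in 37.5% of promoters on either strand, and Per2 holds it as well, in lower case here. The E-box was searched as CACGTG only, found in 6.42% of promoters, and these letters were in neither window. Variants of the E-box were not searched.

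The single largest fall was that of Anp32a, a nuclear phosphoprotein that binds histones. It read 214.5 to 457.3 (median 337.0) on young and 779.6 to 1392 (median 1196) on immature arrays, without overlap. The change was -1.79 ± 0.14, or 3.47-fold lower (adjusted p = 2.3e-08), and it passed in the CreX-low (-2.42 ± 0.09), CreX-high (-1.33 ± 0.18) and RT1-Bb-high (-1.80 ± 0.35) sets. Its 1 other probe set did not pass.

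Several of the other large falls had the opposite sign above the RT1-Bb limit. Nktr, a cyclophilin-like protein of natural killer cells, changed by -1.71, Ifrd1 by -1.69, the translesion polymerase gene Rev1 by -1.69, the cytokine gene Il15 by -1.66, the splicing factor gene Srsf5 by -1.63 and Ints6l by -1.58 on the log2 scale. On the RT1-Bb-high arrays these 6 had changes of 0.69, 1.09, 0.45, 0.43, 1.23 and 0.43 in that order, none of which passed. Srsf5 shows the pattern of values: it read 1880 to 2373 on the CreX-low young arrays and 229.6 to 574.8 on the CreX-high young arrays, against 2324 to 3632 on the CreX-low immature and 389.2 to 1162 on the CreX-high immature arrays. CreX class separated its values more than stage did. With CreX as a block its change was -0.59 (adjusted p = 0.044). Emc8 (-1.53), the homeobox gene Alx1 (-1.61) and the repair gene Parp2 (-1.44) had changes below 0 in all 3 sets.

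**Figure D4:**
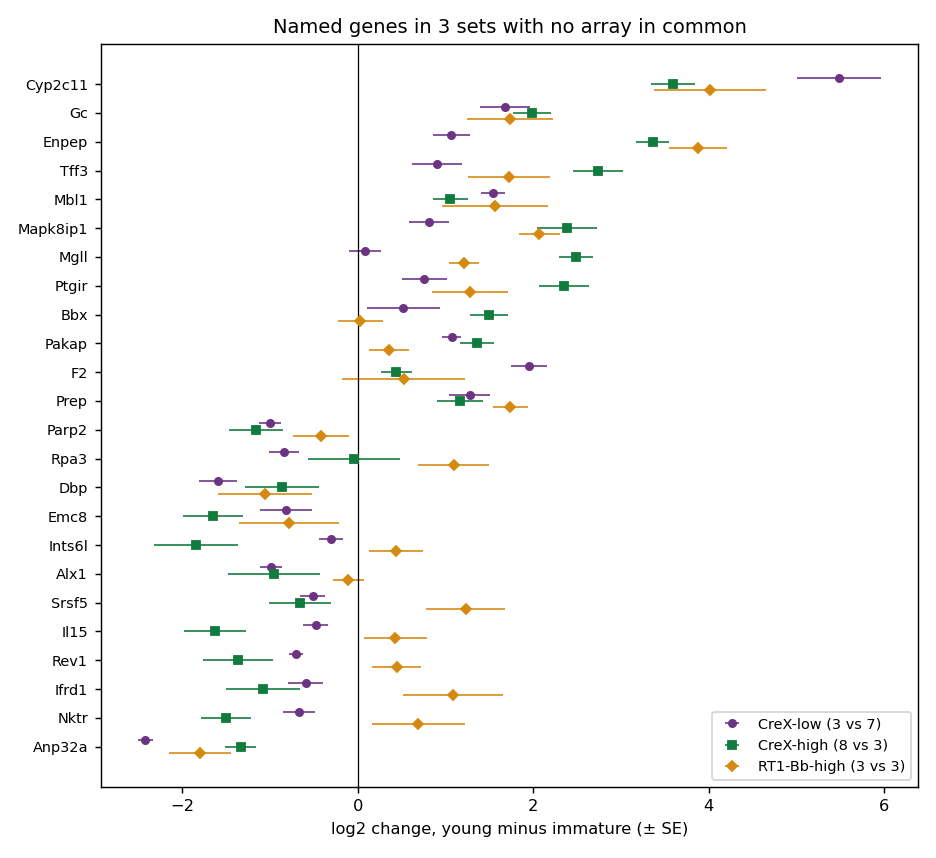
Log2 change (young minus immature, with SE) of the 12 largest rises and 12 largest falls among genes with the same sign in the CreX-low and CreX-high sets, in the CreX-low (purple), CreX-high (green) and RT1-Bb-high (orange) sets, which have no array in common. Rises lie right of 0 in each set, from Cyp2c11 (5.49, 3.59 and 4.01) down, while 7 of the 12 falls lie right of 0 in the RT1-Bb-high set.

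Of the remaining large rises, Mapk8ip1, a scaffold of the JNK kinase pathway, rose by 1.37 ± 0.26 and passed in all 3 sets. Pakap rose by 1.29 ± 0.11 without overlap (1162 to 1862 on young and 405.2 to 732.8 on immature arrays), and passed in both CreX sets. Bbx, a nuclear HMG-box protein, rose by 1.29 ± 0.26, but lay at 0.03 ± 0.26 on the RT1-Bb-high arrays.

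Other genes were called in the CreX-low and CreX-high sets separately, a selection made after their values were seen. Fat1, a giant protocadherin, changed by 1.40, 1.59 and 2.61 in the CreX-low, CreX-high and RT1-Bb-high sets and Msn, moesin, which links actin to the membrane, by 1.18, 1.46 and 2.62. C8h11orf54 changed by 1.17, 1.18 and 1.93. Gpd1, glycerol-3-phosphate dehydrogenase, rose by 0.95 ± 0.28 over the 21 arrays and Ldhd, D-lactate dehydrogenase, by 1.07 ± 0.11. Aldh1a2, which makes retinoic acid, changed by -0.94 ± 0.10, with 40.6 to 67.3 on young and 96.3 to 146.9 on immature arrays, and passed in all 3 sets. Slc22a13, a urate and nicotinate transporter, changed by -0.92, -0.80 and -1.41 in the 3 sets, although over the 21 arrays it did not pass (-0.52, adjusted p = 0.060). Nrgn, a calmodulin-binding protein known from neurons, changed by -1.23, -1.33 and -1.92. Acaa1b, a peroxisomal thiolase, changed by -0.74, -0.80 and -0.69, and the RNA helicase gene Ddx39b by -0.85, -0.97 and 0.0041.

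The growth hormone and IGF list had 10 of 26 members higher and 1 lower (median 0.27), where 11.3% and 15.6% of all genes were. The list median was 0.20 in the CreX-low, -0.10 in the CreX-high and 0.10 in the RT1-Bb-high set. In these sets 4, 4 and 2 members were higher and 0, 2 and 0 lower. Esr1, the oestrogen receptor alpha gene, read 85.1 to 226.9 on young and 25.4 to 82.2 on immature arrays and rose by 1.03 ± 0.17. Prlr, the prolactin receptor gene, rose by 0.75 ± 0.13. Both passed in the CreX-low and CreX-high sets. Igf1 rose by 0.63 ± 0.10 (439.1 to 623.8 on young and 252.3 to 463.7 on immature arrays). Igfbp1, an IGF binding protein raised by fasting, fell by 0.91, and its change was -0.18 ± 0.13 in the CreX-low set and -1.57 ± 0.24 in the CreX-high set. With CreX class as a block 4 members were higher and 1 lower (median 0.07). With only arrays reading below 2000 for 18S, 3 were higher and 3 lower (median -0.11).

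Conjugation and antioxidant genes had 9 of 41 higher and 6 lower (median 0.20). Gsta1, a glutathione transferase of the proximal tubule, read 7794 to 10450 on young and 2067 to 6016 on immature arrays, without overlap, and rose by 1.16 ± 0.14. Gsta3 changed by -0.69 and Ugt8 by -0.57 on the log2 scale, and Gstt2, with 579.3 to 1734 on young and 715.5 to 2639 on immature arrays, was lower too (adjusted p = 8.0e-04). The f_at and s_at probe sets of such families can bind transcripts of near-identical members, so a change may belong to a relative.

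Fatty acid oxidation and peroxisome genes were lower in 10 of 46 cases and higher in 2 (median -0.22), where 15.6% and 11.3% of all genes were. The list median was -0.03 in the CreX-low, -0.07 in the CreX-high and 0.06 in the RT1-Bb-high set. With CreX class as a block it was -0.08. Lower members were the fatty acid binding protein genes Fabp5 (-0.78 ± 0.12) and Fabp3 (-0.51 ± 0.08), the import receptor gene Pex5 (-0.54 ± 0.10) and Decr1 (-0.58 ± 0.12). Of 41 gluconeogenic and amino acid enzymes 6 rose and 6 fell. Glul, glutamine synthetase, rose by 0.80 ± 0.11 without overlap (10113 to 15971 on young and 4902 to 9260 on immature arrays), as did its 3 other probe sets, while Got1 (-0.62) and Bckdha (-0.76) fell. Of 46 respiratory chain genes 5 rose and 4 fell (median -0.01), with Cox6a2 at 0.78 ± 0.14 and Uqcr11 at -0.45 ± 0.09.

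Injury genes and annexins had 8 of 22 lower and 1 higher (median -0.16). Lgals1, galectin 1, read 194.6 to 432.9 on young and 520.6 to 1354 on immature arrays, did not overlap and passed in all 3 sets (-0.63, -1.38 and -1.65). S100a10 (-0.70) and Anxa2 (-0.38) form one complex, and both fell over the 21 arrays. S100a10 changed by -1.11 in the CreX-low and -0.10 in the CreX-high set (adjusted p = 0.78), and the difference passed (adjusted p = 0.0052). Immune genes had 3 higher and 3 lower of 23, with the chemokine gene Ccl2 at -0.95 ± 0.13, Il18 at -0.71 ± 0.13 and Cd4 at 0.66 ± 0.13. The summed level of the 23 immune genes was 14723 to 19713 on young and 14245 to 20860 on immature arrays. Class I and interferon genes had 3 higher and 1 lower of 14, with B2m at 0.34 ± 0.11. Immediate early and heat shock genes had 1 higher and 7 lower of 31 (median -0.01), where 11.3% and 15.6% of all genes were. The lower ones included the chaperone gene Hspa5 (-0.41 ± 0.10) and Ier3 (-0.33 ± 0.08). In the CreX-low, CreX-high and RT1-Bb-high sets 3, 1 and 1 members of that list were higher and 2, 4 and 0 lower. Kidney development genes had 4 higher and 3 lower of 25, with the GDNF receptor gene Gfra1 at 0.63 ± 0.14, Fgf1 at 0.34 ± 0.09 and Cd24 at -0.34 ± 0.08.

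**Figure D5:**
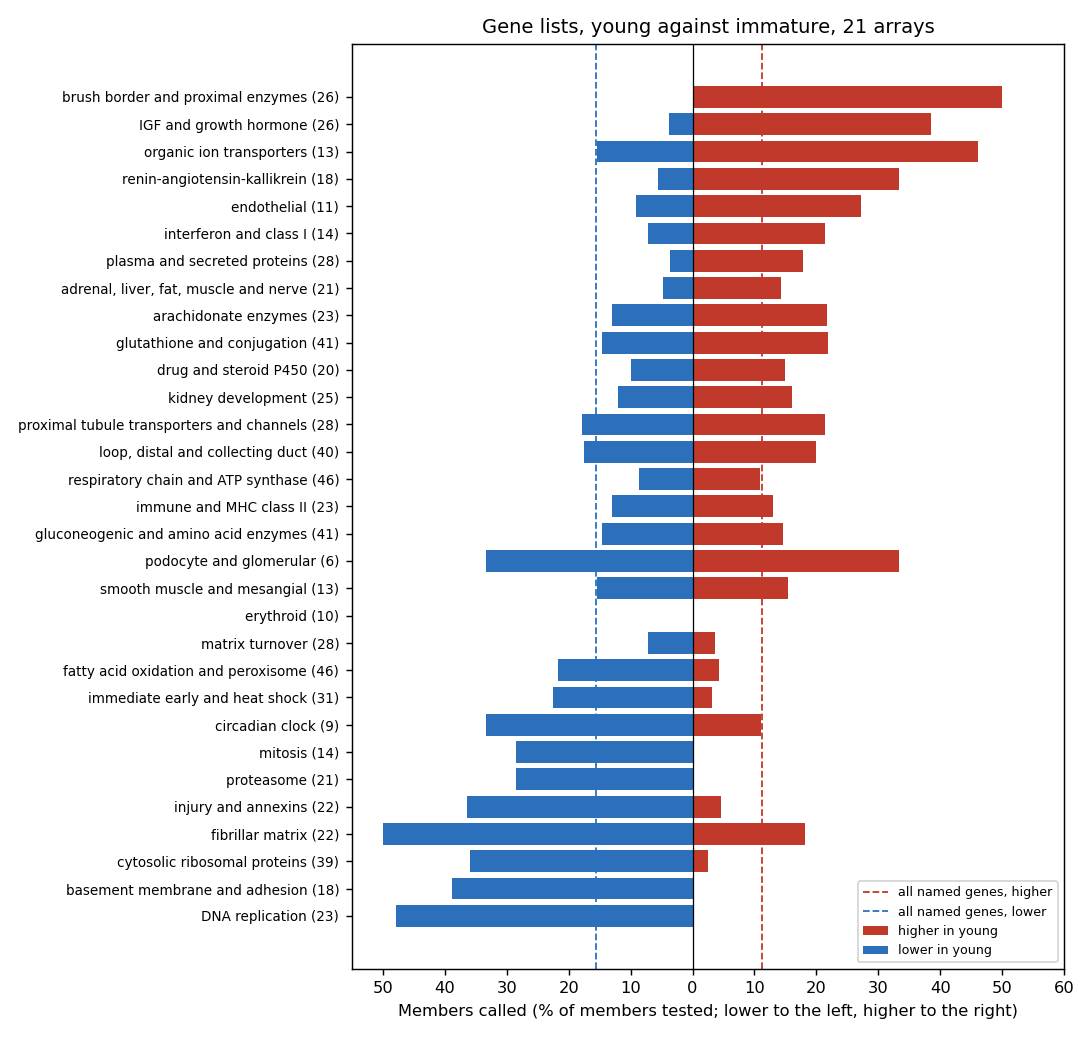
Share of tested members called higher (red, right) or lower (blue, left) in young kidney over the 21 arrays, for 31 gene lists, with the number tested in brackets and dashed lines for all 3830 named genes (11.3% higher, 15.6% lower). Brush border enzymes reach 13 of 26 higher and fibrillar matrix 11 of 22 lower.

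The change differed between the CreX-low and CreX-high sets in 356 of 3830 genes (9.3%) by the interaction term, and over probe sets in 706 of 6555 (10.8%), or in 469 without young replicate 3. The 6 genes with the smallest interaction p were Pdpk1, Tmtc3, Rxrg, Papola, Lamp1 and Mgll. Pdpk1, a kinase upstream of Akt, read 47.6 to 81.8 on young and 64.7 to 98.2 on immature arrays of the CreX-low set, and 207.2 to 360.5 on young and 5.0 to 7.5 on immature arrays of the CreX-high set. Its change was -0.43 ± 0.15 and 3.80 ± 0.17 in the CreX-low and CreX-high sets, and 1.13 ± 0.18 on the RT1-Bb-high arrays. Tmtc3 changed by -2.46 and 0.91, the retinoid receptor gene Rxrg by 1.75 and -1.29, Papola by -0.86 and 0.92 and Lamp1 by -0.43 and 1.32 in the CreX-low and CreX-high sets. Mgll, which splits monoglycerides, changed by 0.08 ± 0.18 and 2.48 ± 0.19, so its rise over the 21 arrays (1.34 ± 0.26) came with no pass in the CreX-low set (adjusted p = 0.77). Which technical feature goes with these differences was not tested.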

How the data were processed

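Kidney RNA of 55 samples was measured on 1-colour arrays, of which 21 are compared here. For each array the authors deposited linear intensities, 1 value for each of 8799 probe sets. The method that summarised probes and scaled arrays is not given in the sources used here. All 21 arrays had nearly the same mean after trimming 2% at each end, 500.4 to 500.7, and the deposited intensity scale was kept. An offset of 15.82 (0.1 of the median) was added before log2, which understates changes of dim probe sets. Tests left out 59 control probe sets and those below the 25th percentile of the mean, leaving 6555 probe sets and 3830 named genes. A gene is its brightest probe set, named from the platform annotation and updated through RefSeq GRCr8 (6994 probe sets matched).

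Young and immature arrays were compared with limma 3.58.1 in R 4.3.3 (lmFit, eBayes, 2-sided), with Benjamini-Hochberg adjustment over all probe sets and a threshold of 0.05. A second fit tested the interaction with CreX class, split at 9000. Named genes are the 12 largest rises and falls among genes called over the 21 arrays with the same sign in both CreX sets, the 4 members of each of 31 lists with the smallest p (all where 6 or fewer were measured), and the 6 smallest interaction p-values. Genes called in both CreX sets separately were added after their values were seen. The arrays, members, lists and tests were chosen with earlier results of these data known. Alternatives of samples, scaling, offset, filter, weights, prior variance and probe set averaging were run, together with leaving out each array. The number of arrays limits precision, and no background signal was used. Fits were tested on simulated data. Figures used matplotlib 3.10.9.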

Additional observations from a re-analysis of the deposited data

Results flagged for a closer look

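In a few genes 1 immature array stood far from the other 9. The gap to its neighbour, over the range of the group, was above 0.466, Dixon's critical value for 10 samples, a mark that chance passes in about 5% of groups; young arrays, 11 in number, were not examined this way. Of 136 genes examined, 20 had such an array, and in 18 of them it was immature replicate 4, 5 or 6, the 3 CreX-high immature arrays. On the log2 scale, immature replicate 4 was lowest in Alx1 (5.26), Resp18 (7.45), Synpo (6.71), Vegfb (6.12), Ltbp1 (8.27), Gsta1 (11.02) and Msn (6.02), and highest in Cyp2e1 (13.68), Dao (13.24) and Rps16 (13.14). Immature replicate 5 was lowest in Ints6l (7.23), Parp2 (5.65), Ugt8 (8.30) and Glul (12.26), and highest in Prlr (10.14) and Lgals1 (10.42). Immature replicate 6 was highest in Lamb2 (10.10) and lowest in Gstt2 (9.51). The other 2 were Bbx, lowest on immature replicate 9 (5.28), and Ptpro, lowest on immature replicate 7 (7.26).

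Of the 136 genes examined, 28 differed in their young minus immature change between the CreX-low and CreX-high arrays (limma interaction test). The choice of the 136 took in the genes with the smallest interaction p-values, Pdpk1, Tmtc3, Rxrg, Papola, Lamp1 and Mgll. The count of 28 was thus fixed in part by that choice. It cannot be set against the 9.3% of all named genes. The CreX-low change exceeded the CreX-high change in Rxrg (by 3.04 on the log2 scale), Cyp2c11 (1.90), F2 (1.51), Igfbp1 (1.39), Agt (1.28), Gpc3 (0.93) and Decr1 (0.70). The difference had the opposite sign in Pdpk1 (-4.23), Tmtc3 (-3.38), Mgll (-2.40), Enpep (-2.30), Tff3 (-1.83), Papola (-1.78), Abcc1 (-1.75), Lamp1 (-1.74), Ptgir (-1.60) and Mapk8ip1 (-1.58). It was also below 0 in Anp32a (-1.08), Slc13a3 (-1.05), S100a10 (-1.01), Actn4 (-0.95), Timp3 (-0.94), Hbb-b1 (-0.83), Acy1 (-0.77), Slc3a1 (-0.74), B2m (-0.71), Ctsb (-0.67) and Anpep (-0.57). In the CreX-high set the immature arrays read low for 5S ribosomal RNA and in the CreX-low set they read high for 18S, and the part of either in these differences was not tested.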

How the results depend on the processing

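The count of 1801 probe sets called over the 21 arrays was 866 on the CreX-high arrays alone, 457 on the RT1-Bb-high arrays alone, 899 with only arrays reading below 2000 for 18S, 3821 with array weights and 1065 genes with probe sets averaged. Leaving out each array gave 1466 to 2202. The 18S setting drops young replicate 12 and all CreX-low immature arrays, so that only immature replicates 4, 5 and 6 remain. It thus changes the set of arrays together with the 18S signal. Of the 1801 calls, 430 also passed there and 1616 kept their direction. The count of 706 interaction calls ran from 469 to 947 when each array was left out, the lowest without young replicate 3. Median scaling of arrays changed the split of interaction calls to 190 higher and 481 lower, against 328 and 378. Directions turned on the RT1-Bb-high arrays in Nktr (0.69), Ifrd1 (1.09), Rev1 (0.45), Il15 (0.43), Srsf5 (1.23), Ints6l (0.43), Rpa3 (1.09), Pla2g4a (0.075), Slc15a2 (0.27), Car2 (0.40), Vegfa (1.63), Wt1 (-0.22), Myl9 (0.24), Cdk4 (0.024), H2az1 (0.085), Prim1 (0.56), Nr1d2 (0.19), Rpl22 (0.22), Lep (-0.76) and Ddx39b (0.0041). With only arrays reading below 2000 for 18S, they turned in Srsf5 (0.15), Rpa3 (0.73), Vegfa (0.45), Nr1d2 (0.035) and Lep (-0.14). Hbb-b1 turned on the CreX-high arrays (0.047), Alas2 with array weights (0.057) and Lamb2 with averaged probe sets (0.023). The causes were not tested. Of the genes named, 7 lost their call when at least 1 array was left out: Cdk1, Cyp21a1, Hlf, Lep, Racgap1, Rpa3 and Vegfa. Halving the RT1-Bb limit changed no array and no count. No paired analysis was possible because the labels give no replicate numbers that the stages share. Small sets (3 against 7, 8 against 3, 3 against 3) and the lack of a background signal per probe set limit what dim genes show. The 18S setting has only 3 immature arrays as well.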
